A study of Mus musculus with 6 samples.

Results

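The comparison set M2-like macrophages of the heart after myocardial infarction (MI heart) against M2-like macrophages of 2 uninjured sites, the intact heart and the peritoneal cavity, and sought genes that differed from both sites in the same direction. All 6 arrays of the series entered it, 2 per group, and each uninjured site had equal weight. The cells were positive for CD206, F4/80 and CD11b, going by the series title, and came from C57BL/6 mice aged 10 weeks, with no transgene or drug named in the labels. No group is labelled as sham-operated, and the sources used here give neither the time after infarction nor the sort protocol nor the number of animals behind an array. Whether both arrays of a group came from separate animals is not stated. The p-values therefore measure the spread between arrays only, which could be technical, and the small number of arrays limits the precision.

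Macrophages take up dead cells, make cytokines and growth factors, and remodel matrix. After an infarction the heart recruits blood monocytes, which become macrophages beside the resident cells that the intact heart already holds, while the peritoneal cavity has its own resident macrophages. CD206 is the mannose receptor, encoded by Mrc1, and a common marker of alternative activation (the M2-like state). The peritoneal cells serve here as a reference from outside the heart, so that a gene differing from both sites is not merely one that separates heart from peritoneum.

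A gene was called apart from both sites when its MI heart level differed from each site in the same direction at an adjusted p under 0.05, the larger of both single-site p-values being used. Levels are normalized log2 signals, on which the dimmest probes above background lay between 4.42 and 4.52, and differences carry their standard error (± SE, n = 2 arrays per group). A fold is written as "at least" where the dimmer group had at least 1 array on which the probe was not above background. Both single-site comparisons share the MI heart arrays. Between 12433 and 14606 of 45281 probes were above background on an array, and 10533 genes and unnamed probes were tested. The correlation of normalized values across genes, which are not independent replicates, was 0.963 to 0.979 between arrays of a group and 0.826 to 0.928 between groups.

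The MI heart cells differed from both sites in 117 tests, or 1.11% of those made. Of these, 92 were higher in the MI heart (0.873%) and 25 lower (0.237%), and 82 and 23 of them were named genes. Among the higher genes were Gpnmb, Pdpn, Vegfa, Inhba, Tgm2 and Mmp14, and among the lower ones Sult1a1, Retnla, Slc12a2 and Alox5. All 92 and all 25 had MI heart arrays outside the range of the 4 uninjured arrays, which also held for 10.5% (above) and 11.3% (below) of all tests. The smaller of both site differences had a median of 1.42 for the higher genes (0.83 to 4.84, log2) and 1.21 for the lower ones (0.90 to 2.21).

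The test against the mean of both sites called 1051 (9.98%), with 608 higher (5.77%) and 443 lower (4.21%). Against the intact heart alone 4.55% of tests were higher in the MI heart and 4.96% lower, and against the peritoneal cavity alone 9.16% and 8.45%. Of the 1051 calls, 934 were not apart from both sites. In 587 of these the MI heart differed from the peritoneal cavity alone, in 158 from the intact heart alone and in 14 from the sites in opposite directions. Another 167 were past the threshold against each site in the same direction in the single comparisons, but not by the larger p adjusted over all tests, and 8 differed from neither site alone. The MI heart mean lay between the site means in 159 of the 934.

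**Figure D1:**
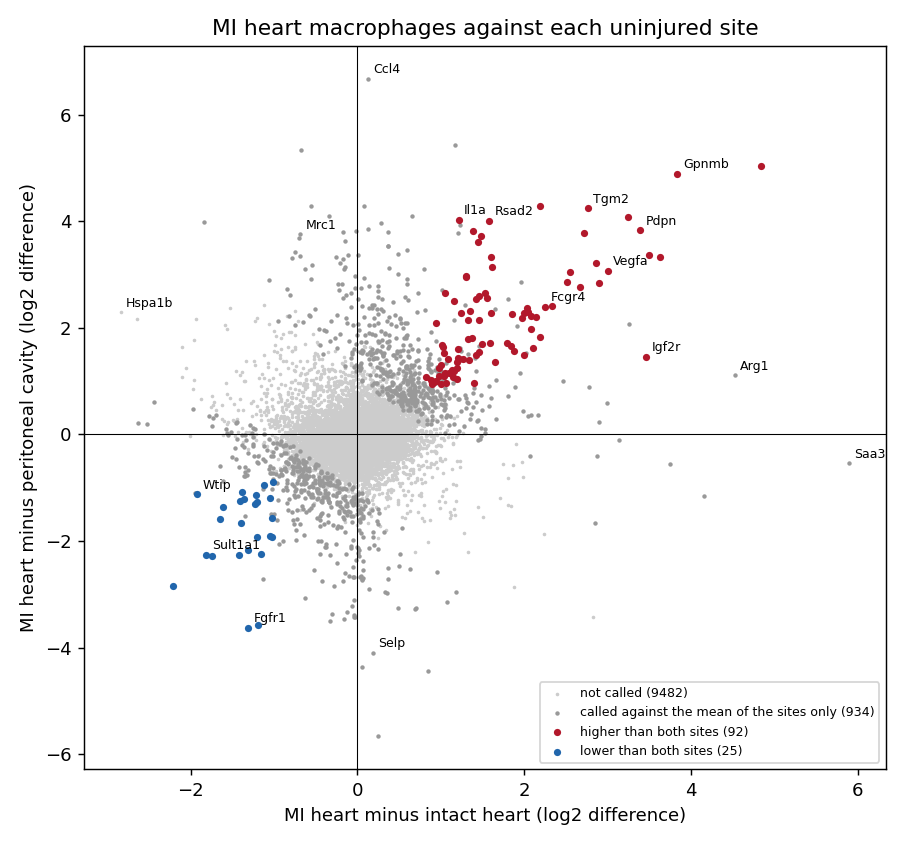
Difference of MI heart from intact heart (x axis) and from peritoneal cavity (y axis), in log2 units, for each of the 10533 genes and unnamed probes tested; both axes share the MI heart arrays. The 92 points called higher than both sites lie in the upper right and the 25 called lower in the lower left, and the 934 points called only against the mean lie around the uncalled centre and along the axes.

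Single arrays weighed on these counts. Without MI heart replicate 1 there were 16 higher and 1 lower, and without MI heart replicate 2 there were 37 and 3. Without either peritoneal array there were 15 and 1, and without intact heart replicate 1 there were 49 and 10. Leaving out intact heart replicate 2 gave 80 and 27. Of the 117 calls, 54 were also made without background correction, 53 with the authors' series matrix values and 29 with no filter on dim probes. In 10 of the 92 higher genes, and in none of the 25 lower ones (0), the call held under each alternative that gave a value, left-out arrays included; 8 of these 10 have a gene name (Pdpn, Vegfa, Inhba, Plac8, Tgm2, Mmp14, Slc7a11 and Ccl8). The MI heart arrays lay more than 0.5 apart in 16 of the 92 higher genes, with replicate 1 above replicate 2 in 13 of these, against 6.79% of all tests.

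Of the 92 higher genes, 62 showed no called difference between the uninjured sites, 28 were higher in the intact heart than in the peritoneal cavity and 2 the other way round. The intact heart was the nearer site for 75. In 14 no probe was above background at either site, and 48 were above background in all groups. Among the 25 lower genes the sites showed no called difference in 15, the peritoneal cavity was higher in 9 and the intact heart in 1.

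Gpnmb, a transmembrane glycoprotein gene of macrophages at sites of tissue damage, was 5.77 and 6.52 in the intact heart, 9.71 and 10.25 in the MI heart, and 5.17 and 5.00 in the peritoneal cavity. Both MI arrays were far above the 4 others, by 14.3-fold over the intact heart and 29.7-fold over the peritoneal cavity (4.37 ± 0.23 against their mean, adjusted p for both sites = 0.000276). This call was lost with no filter on dim probes (adjusted p = 0.0567), and 1 of its 3 other probes was called apart from both sites when each probe was tested on its own. Pdpn encodes podoplanin, a mucin-like glycoprotein best known from lymphatic vessels. Its levels were 4.44 and 4.89 in the intact heart, 8.11 and 7.99 in the MI heart, and 4.18 and 4.26 in the peritoneal cavity, where it was not above background. It was at least 10.2-fold higher than in the intact heart and at least 12.3-fold higher than in the peritoneal cavity (adjusted p = 8.34e-05). All 4 uninjured arrays lay under 5.

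Cd300lf encodes a receptor of the CD300 family that binds phospholipids on dying cells. It read 7.92 on both MI heart arrays, between 4.22 and 4.37 in the intact heart, where it was not above background, and 4.14 and 5.04 in the peritoneal cavity. The MI heart was at least 10.8-fold above the intact heart and at least 9.08-fold above the peritoneal cavity (adjusted p = 0.000546). The 2 peritoneal arrays disagreed on whether the gene was above background. Without MI heart replicate 1 the adjusted p was 0.0668, and with no filter it was 0.0715. Lhfpl2, a membrane protein gene, was 4.56-fold above the intact heart and 19.4-fold above the peritoneal cavity (adjusted p = 0.00338), and lost its call without either MI heart array (0.0993 and 0.123). For Calhm6, a channel-forming protein of immune cells, the factor was 4.13 over the intact heart and at least 4.93 over the peritoneal cavity (adjusted p = 0.00182). Its call was lost without MI heart replicate 1 or either peritoneal array (0.0578 to 0.0652).

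Fcgr4, the activating receptor for immunoglobulin G that mouse monocytes and macrophages carry, was already bright at both sites. It measured 8.72 and 8.22 in the intact heart, 11.06 and 10.39 in the MI heart, and 8.63 and 8.04 in the peritoneal cavity. The MI arrays were 4.78-fold and 5.25-fold above the sites (2.32 ± 0.25 against their mean, adjusted p = 0.00646), and the sites lay close to each other. Of the 7 Fc receptor genes tested it was the 1 called apart from both sites, next to 1.11% of all tests. The call was lost without either MI heart array or either peritoneal array (adjusted p 0.0583 to 0.162).

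Vegfa, the main growth factor of blood vessels, was 4.24 and 4.29 in the intact heart, 7.39 and 7.14 in the MI heart, and 4.20 and 4.19 in the peritoneal cavity. It was above background in the MI heart alone, at least 6.82-fold above the intact heart and at least 7.13-fold above the peritoneal cavity (adjusted p = 8.34e-05). Of its 2 other probes 1 was called on its own (adjusted p 0.00461 and 0.588). Inhba encodes the subunit of activin A, a TGF-beta family ligand. It was 4.64 and 4.80 in the intact heart, 7.78 and 7.40 in the MI heart, and 4.42 and 4.32 in the peritoneal cavity. Activin subunit signal was thus 7.29-fold above the intact heart and at least 8.92-fold above the peritoneal cavity (3.04 ± 0.16 against their mean, adjusted p = 0.000172). Nrg1, Lif and Osm were noticed after their values were seen. Nrg1, which encodes the ErbB ligand neuregulin 1, was not above background at either site and was 7.43 and 6.66 in the MI heart, at least 5.85-fold higher than in the intact heart (adjusted p = 0.00123).

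Both Lif and Osm encode cytokines of the interleukin-6 family that signal through gp130. Lif was 6.20 and 5.61 in the MI heart and not above background at either site, at least 2.66-fold above the intact heart (adjusted p = 0.00717). Osm was bright everywhere, at 9.56 and 9.61 in the intact heart, 10.61 and 10.67 in the MI heart, and 8.16 and 7.81 in the peritoneal cavity. It was 2.08-fold and 6.28-fold higher in the MI heart (adjusted p = 0.0241). The call of Nrg1 was lost without either peritoneal array (adjusted p 0.0652 and 0.0683), that of Lif with 4 of the arrays left out in turn (both peritoneal arrays and replicate 1 of each heart group, 0.0604 to 0.142), and that of Osm with any array left out (0.0785 to 0.258).

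Of the 27 tested genes of the matrix remodelling and repair list, 6 were higher than at both sites (Mmp14, Osm, Sparc, Tgm2, Timp1 and Vegfa) and 0 lower, next to 0.873% and 0.237% of all tests. Their median difference from the mean of the sites was 0.81, next to -0.04 over all tests. Against the mean alone 15 of the 27 were higher and 0 lower, next to 5.77% and 4.21% of all tests.

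Tgm2 encodes transglutaminase 2, which cross-links proteins and is also used as a marker of alternative activation. It was 6.53 and 6.62 in the intact heart, 9.57 and 9.11 in the MI heart, and 5.17 and 5.01 in the peritoneal cavity. The MI heart was 6.79-fold above the intact heart and 19.0-fold above the peritoneal cavity (3.50 ± 0.16 against their mean, adjusted p = 0.000276). Mmp14 encodes a membrane-bound collagenase. It was 4.90 and 4.51 in the intact heart, 7.38 and 7.14 in the MI heart, and not above background in the peritoneal cavity. It was 5.86-fold above the intact heart and at least 7.09-fold above the peritoneal cavity (adjusted p = 0.000311).

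Timp1, an inhibitor of matrix metalloproteinases chosen here after its values were seen, was at least 2.56-fold above the intact heart and at least 2.86-fold above the peritoneal cavity (adjusted p = 0.00646). Sparc, a collagen-binding matrix protein, was 5.13 and 4.87 in the intact heart, 6.35 and 6.32 in the MI heart, and not above background in the peritoneal cavity (2.51-fold above the intact heart, adjusted p = 0.0058). Of the 2 other Sparc probes 1 was called on its own (adjusted p 0.0471 and 0.458). Both lost the call with 4 of the arrays left out in turn, Timp1 without intact heart replicate 1, MI heart replicate 1 or either peritoneal array (adjusted p 0.055 to 0.127), and Sparc without either MI or peritoneal array (0.0652 to 0.123).

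Of 18 fibroblast markers on the array 8 were tested. Sparc, which is also on the matrix list, Bgn and Col1a1 were higher than at both sites and 0 lower, next to 0.873% and 0.237% of all tests. Another, Pi16, was called lower against the mean of the sites, at 5.10 and 4.43 in the intact heart, 5.21 and 5.58 in the MI heart, and 8.28 and 7.56 in the peritoneal cavity. Col1a1, a chain of type I collagen, was 5.32 and 5.26 in the MI heart, at least 1.73-fold above the intact heart (adjusted p = 0.0139), and not above background at either site. Bgn, the proteoglycan biglycan, was 2.04-fold above the intact heart and at least 2.87-fold above the peritoneal cavity (adjusted p = 0.0335). Marker sums, here and below, are of normalized signal on the linear scale, so a marker at background still adds its background signal. The sum of the 8 tested markers was 181.6 to 209.1 in the intact heart, 323.3 to 330.3 in the MI heart and 327.2 to 445.4 in the peritoneal cavity. The MI heart sum was above that of the intact heart and not above that of the peritoneal cavity. Pi16 alone made up most of the peritoneal sum, and Sparc, Bgn and Col1a1 were not above background there. The sums therefore do not rank the MI heart and the peritoneal cavity for the other markers. Col1a2, Col6a1, Postn, Tcf21, Thy1, Mfap5 and Fap were not above background on any array. The part of these markers in the matrix result was not tested. Col1a1 lost its call with any array left out (adjusted p 0.0521 to 0.181), and Bgn with any but intact heart replicate 1 (0.119 to 0.351). In such bulk samples fewer cells of a type and less RNA per cell cannot be told apart.

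**Figure D2:**
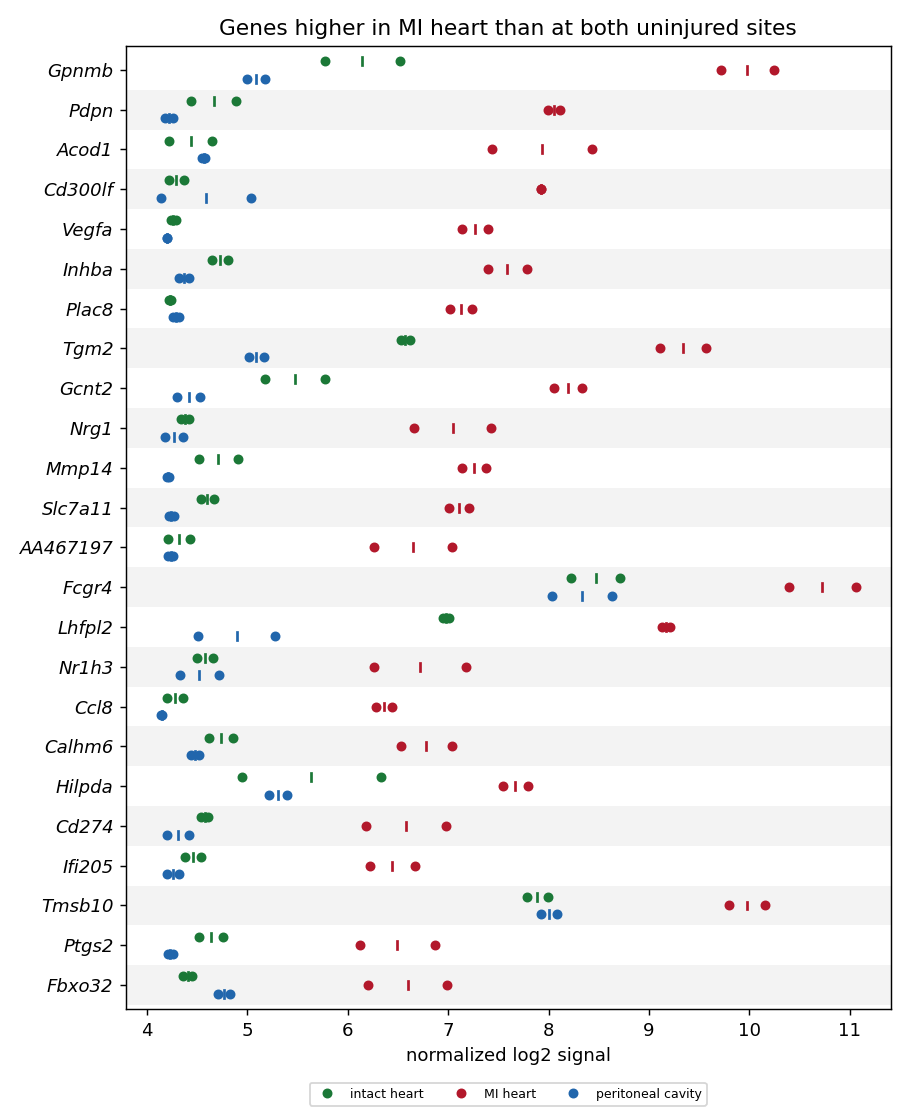
Normalized log2 signal of named genes higher than at both uninjured sites, with a point for each array (n = 2 per group) and a bar at each group mean. The MI heart points lie to the right of all 4 uninjured points in every row, as for all 92 higher calls. Signals near 4.4 are at background.

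Of 16 tested inflammatory cytokines and effectors, 5 were higher than at both sites (Acod1, Ptgs2, Il1a, Il1r2 and Il1rn) and 0 lower, next to 0.873% and 0.237% of all tests. The median difference of the list from the mean of the sites was 1.02, next to -0.04 over all tests, and against that mean 10 of 16 were higher, next to 5.77%. Acod1, the enzyme that makes itaconate from a citric acid cycle intermediate, was 4.22 and 4.65 in the intact heart, 8.43 and 7.43 in the MI heart, and 4.55 and 4.58 in the peritoneal cavity. It was at least 10.2-fold above the intact heart and 10.3-fold above the peritoneal cavity (adjusted p = 0.00116). The MI arrays themselves lay 1 log2 unit apart.

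Ptgs2 encodes cyclooxygenase 2, which starts prostaglandin synthesis. It was 4.52 and 4.75 in the intact heart, 6.87 and 6.12 in the MI heart and not above background in the peritoneal cavity, 3.62-fold above the intact heart (adjusted p = 0.00717). Il1r2, the decoy receptor that binds interleukin 1 without signalling, was 5.51 and 4.95 in the intact heart, 6.87 and 6.70 in the MI heart and not above background in the peritoneal cavity (2.94-fold above the intact heart, adjusted p = 0.00815). The agonist Il1a and the antagonist Il1rn, both named after their values were seen, were higher together with the decoy receptor. Il1a was 2.32-fold and 16.3-fold above the sites (adjusted p = 0.0219), and Il1rn 2.73-fold above the intact heart and at least 11.4-fold above the peritoneal cavity (adjusted p = 0.00646).

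With single arrays left out, the 5 calls were not stable. Acod1 lost its call without either peritoneal array (adjusted p 0.0747 and 0.0832), and Ptgs2 also without intact heart replicate 1 or MI heart replicate 1 (0.073 to 0.122). Il1r2 and Il1rn lost it without either MI or peritoneal array (0.0952 to 0.217 and 0.0683 to 0.136), and Il1a with any array left out (0.0622 to 0.276).

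Of the 4 tested neutrophil markers, S100a9 and Mmp9 differed between the MI arrays. S100a9, a calcium-binding protein abundant in neutrophils and monocytes, was 7.25 and 5.42 in the MI heart and not above background elsewhere, and Mmp9, a gelatinase, was 6.35 and 4.99. S100a9 was called against the mean of the sites (1.98 ± 0.40, adjusted p = 0.015) but not apart from both (adjusted p = 0.133). The 4 tested neutrophil markers of 15 on the array summed to 110.7 to 131.8 in the intact heart, 139.3 to 293.4 in the MI heart and 150.3 to 152.2 in the peritoneal cavity. Csf3r and Ltf, the other tested markers, together did not add to the difference between the MI arrays in this sum. Cxcr2, Mmp8, Camp, Ngp, Mpo, Retnlg and Stfa3 were not above background on any array. The part of neutrophil RNA in the cytokine result was not tested.

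Plac8 and Ccl8 kept their calls under each alternative that gave a value. Plac8, a gene strongly expressed by classical monocytes, was 4.22 and 4.24 in the intact heart, 7.23 and 7.02 in the MI heart, and 4.31 and 4.26 in the peritoneal cavity. Its MI heart signal was at least 6.19-fold above the intact heart and at least 6.47-fold above the peritoneal cavity (adjusted p = 8.34e-05). Among 16 tested genes of monocyte-derived cells it was the 1 called apart from both sites, next to 1.11% of all tests. Even so, 10 of the 16 were higher against the mean of the sites, next to 5.77%, and 11 against the intact heart, next to 4.55%. Against the peritoneal cavity 5 were higher and 2 lower, next to 9.16% and 8.45%. Ccl8 encodes a monocyte-attracting chemokine that resident heart macrophages are known to make. It was 4.36 and 4.19 in the intact heart, 6.28 and 6.44 in the MI heart, and 4.15 and 4.14 in the peritoneal cavity, at least 3.63-fold above the intact heart (adjusted p = 0.000449).

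Interferon-stimulated genes were higher than at both sites in 3 of 12 tested (Rsad2, Ifit2 and Isg15), with 0 lower, next to 0.873% and 0.237% of all tests. Against the mean of the sites 11 of 12 were higher, next to 5.77%. In the single-site comparisons 5 of 12 were higher than in the intact heart, next to 4.55%, and 12 of 12 higher than in the peritoneal cavity, next to 9.16%. Rsad2, the antiviral protein viperin, was 6.75 and 6.77 in the intact heart, 8.35 and 8.32 in the MI heart, and 4.24 and 4.42 in the peritoneal cavity. It was 2.99-fold above the intact heart and at least 15.0-fold above the peritoneal cavity (adjusted p = 0.00182). Ifit2, an inhibitor of translation of viral RNA, was 2.62-fold and at least 12.3-fold higher (adjusted p = 0.00403, and 0.0842 for its second probe), and Isg15, a ubiquitin-like modifier, 2.68-fold and at least 5.23-fold higher (adjusted p = 0.0238). In all 3 the intact heart lay between the MI heart and the peritoneal cavity. Rsad2 lost its call without MI heart replicate 1 (adjusted p = 0.0708), Ifit2 without either MI or peritoneal array (0.0568 to 0.0963), and Isg15 with any array but intact heart replicate 2 left out (0.125 to 0.357).

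Of 16 tested glycolysis genes, Slc2a1 and Slc16a3 were higher than at both sites and 0 lower, next to 0.873% and 0.237% of all tests. Against the mean of the sites 9 of 16 were higher, next to 5.77%, and 0 lower (median 0.82). Slc2a1, the glucose transporter GLUT1, was 6.56 and 7.01 in the intact heart, 8.72 and 8.06 in the MI heart, and 5.02 and 5.48 in the peritoneal cavity, or 3.05-fold and 8.86-fold higher (adjusted p = 0.0255). Slc16a3, the lactate exporter MCT4, was at least 2.94-fold above the intact heart and 2.94-fold above the peritoneal cavity (adjusted p = 0.00807), but its second probe differed by -0.32 and -0.03 from the sites. Slc2a1 lost its call with any array but intact heart replicate 2 left out (adjusted p 0.0957 to 0.335), and Slc16a3 without MI heart replicate 1 or either peritoneal array (0.108 to 0.188).

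Pkm, the pyruvate kinase, and Aldoa, the aldolase, are given here after their values were seen. Pkm was 7.03 and 6.93 in the intact heart, 8.77 and 8.34 in the MI heart, and 8.14 and 7.90 in the peritoneal cavity. Aldoa was 7.10 and 6.99, 8.52 and 8.41, and 7.80 and 7.92 in the same order. Both were highest in the MI heart, by 0.54 and 0.60 over the peritoneal cavity, and neither was called apart from both sites.

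Of 16 hypoxia response genes outside glycolysis, Vegfa and Hif1a were higher than at both sites and 0 lower, next to 0.873% and 0.237% of all tests, with a median difference from the mean of the sites of 0.20. Against that mean 4 were higher and 0 lower, next to 5.77% and 4.21%. Against the intact heart alone 5 were higher and 0 lower, next to 4.55% and 4.96%. The list moved both ways against the peritoneal cavity alone, with 4 higher and 4 lower, next to 9.16% and 8.45%. Hif1a encodes the oxygen-regulated subunit of the HIF-1 transcription factor. It was 4.93 and 4.88 in the intact heart, 6.00 and 6.13 in the MI heart, and 4.88 and 4.86 in the peritoneal cavity (2.22-fold and 2.28-fold higher, adjusted p = 0.00807). The uninjured sites were nearly equal. Hilpda, which was not on this list, encodes a lipid droplet protein induced by low oxygen. It was 4.94 and 6.33 in the intact heart, 7.55 and 7.79 in the MI heart, and 5.22 and 5.39 in the peritoneal cavity. The MI heart was 4.10-fold and 5.15-fold higher (adjusted p = 0.0394). The intact heart arrays of Hilpda lay far apart. Both genes lost the call without either MI or peritoneal array (adjusted p 0.102 to 0.129 for Hif1a and 0.323 to 0.547 for Hilpda), and the second probe of Hif1a was not called on its own (adjusted p = 0.326).

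Slc7a11, the cystine importer that feeds glutathione synthesis, was 4.54 and 4.66 in the intact heart, 7.01 and 7.20 in the MI heart, and 4.21 and 4.27 in the peritoneal cavity, where this probe was not above background but another of the gene was on 1 array. It was 5.69-fold above the intact heart and at least 6.39-fold above the peritoneal cavity (adjusted p = 0.000172). Of 16 NRF2 and iron handling genes it was the 1 called apart from both sites, next to 1.11% of all tests. Gcnt2, which branches glycan chains, was 5.18 and 5.77 in the intact heart, 8.05 and 8.33 in the MI heart, and 4.53 and 4.30 in the peritoneal cavity. It was 6.57-fold and at least 13.2-fold higher (adjusted p = 0.00068), with the call lost when dim probes were kept (0.0655).

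Nr1h3 encodes the oxysterol receptor LXR alpha. It was 4.66 and 4.49 in the intact heart, 7.18 and 6.26 in the MI heart, and 4.32 and 4.71 in the peritoneal cavity, 4.41-fold above the intact heart (adjusted p = 0.00807). Igf2r, which sorts mannose-phosphate tagged enzymes to lysosomes, was not above background in the intact heart, 7.97 and 7.64 in the MI heart, and 6.26 and 6.44 in the peritoneal cavity. It was at least 9.91-fold and 2.74-fold higher (adjusted p = 0.00646), and the peritoneal cavity was its nearer site, as for 17 of the 92 higher genes. Nr1h3 lost its call with any array but MI heart replicate 2 left out (adjusted p 0.0626 to 0.198), and Igf2r without either MI or peritoneal array (0.0583 to 0.149).

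Tmsb10, an actin monomer binding protein, was 7.781 and 7.998 in the intact heart, 10.16 and 9.80 in the MI heart, and 7.92 and 8.08 in the peritoneal cavity, or 4.25-fold and 3.93-fold higher (adjusted p = 0.00145). The uninjured arrays overlapped in Tmsb10, and 1 of its 2 other probes was called on its own (adjusted p 0.0103 and 0.0692). The orphan nuclear receptor genes Nr4a2 and Nr4a3 were the 2 called of 20 immediate early genes, next to 1.11% of all tests. They were 2.46-fold and 2.36-fold above the intact heart and at least 7.49-fold and at least 4.13-fold above the peritoneal cavity (adjusted p 0.00807 and 0.017). Of the 20, 2 were higher and 7 lower than in the intact heart alone, next to 4.55% and 4.96% of all tests. Against the peritoneal cavity alone 15 were higher and 1 lower, next to 9.16% and 8.45%. Arg2, the mitochondrial arginase, was at least 1.59-fold above the intact heart (adjusted p = 0.0326), and Il7r, the interleukin 7 receptor, was 2.31-fold above it (adjusted p = 0.0206). None of the 3 other Il7r probes was called (adjusted p 0.603 to 1), and they differed from the intact heart by 0.09 to 0.46. The second probe of Nr4a3 was not called either (0.0626).

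Il7r is also a marker of lymphocytes. The 2 tested markers of T and NK cells, Cd2 and Il7r, of 13 on the array, summed to 53.9 to 58.0 in the intact heart, 77.7 to 91.6 in the MI heart, and to 40.5 on both peritoneal arrays. The rise of this sum from the intact heart to the MI heart came from the Il7r probe alone, and mean Cd2 was not higher in the MI heart than in the intact heart. Cd3e, Cd3g, Cd4, Cd8a, Ncr1, Gzmb and Nkg7 were not above background on any array. The 5 calls were lost when arrays were left out, Tmsb10 without MI heart replicate 1 or either peritoneal array (adjusted p 0.0578 to 0.0675), Arg2 with any array (0.0751 to 0.278), and Il7r with any but intact heart replicate 2 (0.123 to 0.258). Nr4a2 lost it with any array but intact heart replicate 2 left out, and Nr4a3 with any but intact heart replicate 1 (0.0604 to 0.258 over both genes).

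Further higher genes are given after their values were seen. Cd274, which encodes the checkpoint ligand PD-L1, was 4.61 and 4.54 in the intact heart, 6.98 and 6.18 in the MI heart, and not above background in the peritoneal cavity, 4.01-fold above the intact heart (adjusted p = 0.00625). Trem1, an activating receptor of myeloid cells, was above background in the MI heart alone, at least 2.79-fold over the intact heart and at least 2.92-fold over the peritoneal cavity (adjusted p = 0.00403). The second Trem1 probe differed by 0.884 and 0.855 from the sites and was not called on its own (adjusted p = 0.434). Sgk1, a serum and glucocorticoid-regulated kinase, was 7.05 and 7.18, 9.14 and 9.30, and 7.48 and 7.71 in the order intact heart, MI heart and peritoneal cavity (adjusted p = 0.00222). In each of these 3 the means of the uninjured sites lay less than 0.5 apart (log2).

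Ccrl2, a receptor that presents chemerin, had an intermediate intact heart level instead (7.68 and 7.61, against 9.26 and 9.01 in the MI heart and 5.49 and 5.33 in the peritoneal cavity, adjusted p = 0.00383). Smox, the spermine oxidase, was 2.88-fold and 6.29-fold higher (adjusted p = 0.00557), and 2 of its 4 other probes were called. Fbxo32, a ubiquitin ligase subunit known from muscle wasting, was at least 4.29-fold above the intact heart and 3.56-fold above the peritoneal cavity (adjusted p = 0.00807), and both of its other probes were called on their own. Havcr2, the receptor TIM-3, was 2.01-fold above the intact heart (adjusted p = 0.0354), with its second probe not called (0.0863). All 7 lost the call with 3 to 5 of the arrays left out in turn, each time with both peritoneal arrays among them (adjusted p 0.0567 to 0.361 over the 7 genes).

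Unnamed probes also stood apart, and the probe table gave no gene for them. ILMN_1255416 was 4.71 and 4.49 in the intact heart, 9.67 and 9.21 in the MI heart, and 4.32 and 4.48 in the peritoneal cavity, 28.7-fold above the intact heart, the largest smaller-site difference of all tests (adjusted p = 2.14e-05). On the lower side ILMN_2565942 was below the sites by 4.64-fold and 7.18-fold (adjusted p = 0.00222), with its call lost without either peritoneal array (0.0601 and 0.0652) and with no filter (0.106).

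Among the 25 lower genes, Sult1a1, a sulfotransferase of phenols, was 7.12 and 7.08 in the intact heart, 5.17 and 5.41 in the MI heart, and 7.50 and 7.59 in the peritoneal cavity. It was 3.51-fold and 4.78-fold lower in the MI heart (-2.04 ± 0.14 against the mean of the sites, adjusted p = 0.00116). Alox5, the 5-lipoxygenase that starts leukotriene synthesis, was 7.20 and 6.91 in the intact heart, 5.78 and 5.48 in the MI heart, and 7.70 and 8.06 in the peritoneal cavity, or 2.68-fold and 4.77-fold lower (adjusted p = 0.0103). While Alox5 was lower, Ptgs2, which acts on the same substrate, arachidonic acid, was higher. Ephx1, an epoxide hydrolase, was 2.56-fold and 2.32-fold lower (adjusted p = 0.0133). Without MI heart replicate 1 the adjusted p of Sult1a1 was 0.0546, and Alox5 and Ephx1 lost the call with any array but intact heart replicate 2 left out (0.0748 to 0.191 and 0.0604 to 0.207). Neither other probe of Alox5 was called on its own (adjusted p 0.126 and 1).

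Of 13 tested alternative activation genes, Retnla and Ccl24 were lower than at both sites, next to 0.237% of all tests. Tgm2 was the 1 higher, next to 0.873%, so members of the list moved both ways. Against the intact heart alone 3 were higher and 5 lower, next to 4.55% and 4.96% of all tests. Against the peritoneal cavity alone 9 were higher and 2 lower, next to 9.16% and 8.45%. Retnla, a secreted protein induced by interleukin 4, was 6.56 and 6.02 in the intact heart, 4.43 and 4.67 in the MI heart, and 6.92 and 6.72 in the peritoneal cavity. It was at least 3.32-fold and at least 4.80-fold lower (adjusted p = 0.00578). Ccl24, an eosinophil-attracting chemokine, was 5.80 on both intact heart arrays, 4.54 and 4.42 in the MI heart, and 6.52 and 6.79 in the peritoneal cavity, at least 2.48-fold and at least 4.49-fold lower (adjusted p = 0.00646). Both were above background on 1 MI heart array. Either call was lost without any 1 of the MI or peritoneal arrays (adjusted p 0.0747 to 0.159 for Retnla, 0.0594 to 0.129 for Ccl24).

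Timd4 encodes the phosphatidylserine receptor TIM4 of long-lived resident macrophages. It was 6.38 and 6.24 in the intact heart, 5.38 and 4.92 in the MI heart, and 7.51 and 7.28 in the peritoneal cavity, 2.23-fold and 4.73-fold below the sites (adjusted p = 0.0278). With Ccl24 it made up the 2 lower genes among 19 tested resident heart macrophage genes, of which Ccl8 was higher. Over all tests 0.237% were lower than at both sites and 0.873% higher. The Timd4 call was lost with any array left out (adjusted p 0.0915 to 0.276).

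Slc12a2, the sodium, potassium and chloride cotransporter NKCC1, was 8.41 and 8.37 in the intact heart, 6.79 and 6.68 in the MI heart, and 8.35 and 8.30 in the peritoneal cavity, where it matched the intact heart closely. It was 3.14-fold and 3.01-fold lower (adjusted p = 0.00171), but its second probe differed by -0.38 and -0.97 from the sites and was not called. Ctsf, a lysosomal cysteine protease, was 3.06-fold and 2.56-fold lower (adjusted p = 0.00646), and Cdkn1c, the cell cycle inhibitor p57, 2.65-fold and 2.36-fold lower (adjusted p = 0.00578). Cmah, which makes the sialic acid Neu5Gc, was at least 2.63-fold and at least 3.17-fold lower (adjusted p = 0.0344), with its second probe not called (0.404). Fgfr1, a fibroblast growth factor receptor, was 2.49-fold and 12.4-fold lower (adjusted p = 0.00646), but its second probe differed from the intact heart by 0.08 and was not called.

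These 5 calls were lost as follows. Slc12a2 lost it without MI heart replicate 1 or either peritoneal array (adjusted p 0.0551 to 0.0601). Ctsf, Cdkn1c and Fgfr1 lost it without either MI or peritoneal array (0.0584 to 0.13 over the 3 genes), and Cmah with any array but intact heart replicate 2 left out (0.164 to 0.462). In the MI heart Apbb1 and Anapc11 were not above background; they were at least 1.90-fold and at least 1.95-fold below the intact heart (adjusted p 0.0289 and 0.0258), and lost the call with any array but intact heart replicate 2 left out (0.0604 to 0.305).

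Lower genes noticed after their values were seen included Txnip, Ednrb, Wtip and Abca9. Txnip, which encodes an inhibitor of thioredoxin and of glucose uptake, was 9.02 and 8.79 in the intact heart, 7.80 and 7.61 in the MI heart, and 9.56 and 9.69 in the peritoneal cavity. It was 2.30-fold and 3.78-fold lower (adjusted p = 0.0104), and its second probe was called on its own (adjusted p = 0.00563). Ednrb, an endothelin receptor, was 7.69 and 7.76, 6.52 and 6.55, and 10.32 and 9.89 in the same order (adjusted p = 0.0174), but neither other probe was called. The peritoneal cavity stood far above both hearts in Ednrb.

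Wtip, a LIM domain protein, was 9.10 and 8.93 in the intact heart, 7.28 and 6.90 in the MI heart, and 8.11 and 8.31 in the peritoneal cavity (adjusted p = 0.0259), the 1 lower gene whose intact heart level was called above the peritoneal one. Abca9, a lipid transporter of the ABC family, was 2.61-fold and 2.11-fold lower (adjusted p = 0.0141), and all 3 of its other probes were called on their own. With single arrays left out, Txnip and Wtip lost the call with any but intact heart replicate 2 (adjusted p 0.0604 to 0.326), Ednrb with any array (0.0652 to 0.258), and Abca9 without either MI or peritoneal array (0.113 to 0.191).

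**Figure D3:**
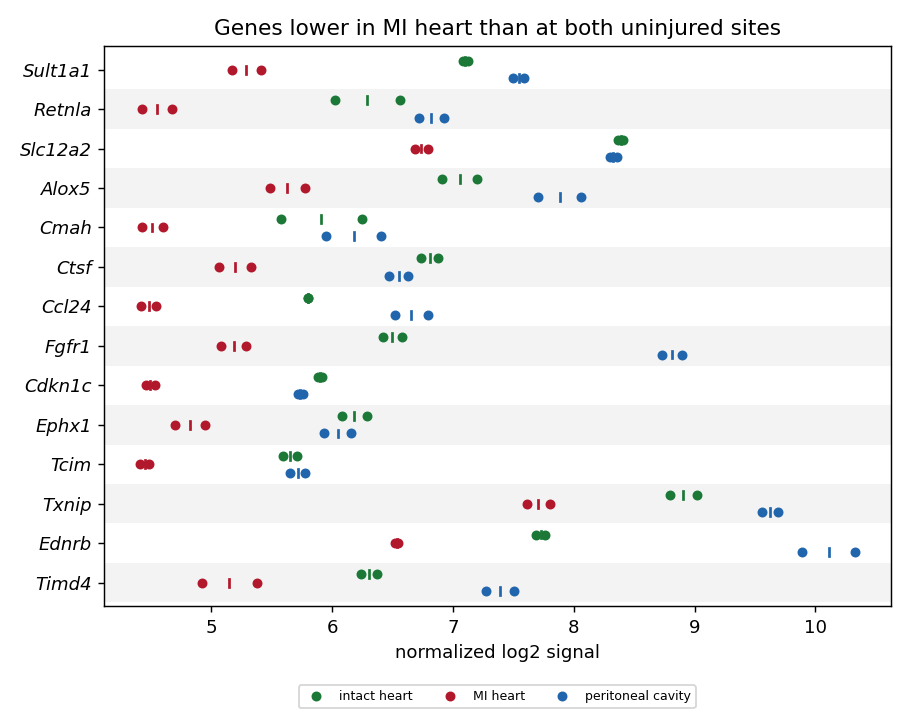
Normalized log2 signal of genes lower in the MI heart than at both uninjured sites, with a point for each array (n = 2 per group) and a bar at each group mean. The MI heart points lie to the left of all 4 uninjured points in every row; the peritoneal points of Fgfr1 and Ednrb lie far to the right of both hearts.

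Over the 37 gene lists, called members stayed few, and 10 of the lists without markers of other cell types had none. MHC class II presentation, heat-shock chaperones, oxidative phosphorylation, lysosome, endoplasmic reticulum stress, cholesterol synthesis, cell cycle, toll-like receptors, macrophage identity and large peritoneal macrophage genes had 0 higher and 0 lower. Several of them differed from 1 site. H2-Eb1, an MHC class II chain, was 9.75 and 9.26 in the intact heart, 9.45 and 9.22 in the MI heart, and 5.58 and 5.48 in the peritoneal cavity. Hspa1a, an inducible chaperone, was 10.60 and 11.10, 9.003 and 9.012, and 5.32 and 4.72 in the same order, so its MI heart level lay between the sites. Of 16 heat-shock genes 12 were lower than in the intact heart, next to 4.96% of all tests, and 11 higher than in the peritoneal cavity, next to 9.16%.

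**Figure D4:**
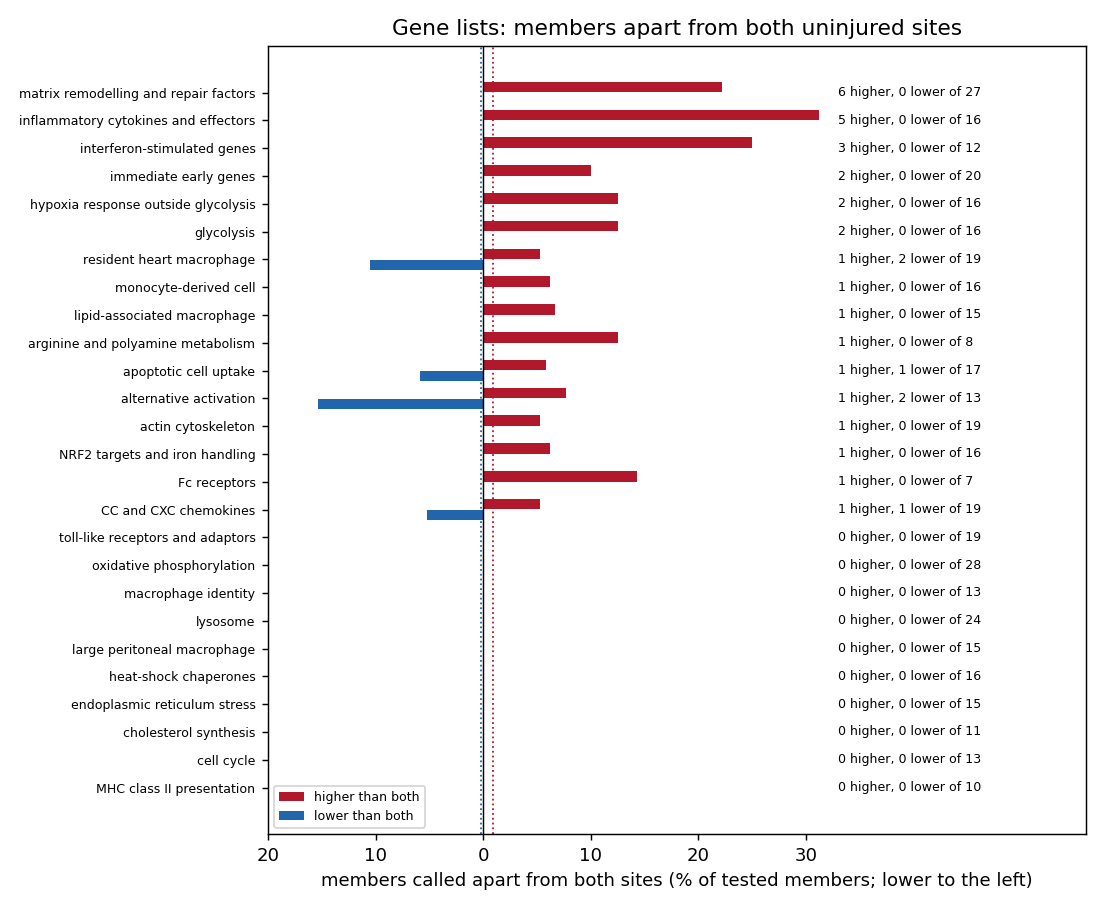
Share of tested members of each gene list called higher (red, to the right) or lower (blue, to the left) than both uninjured sites, in percent, with counts at the right. Dotted lines mark the shares over all 10533 tests, 0.873% higher and 0.237% lower; lists hold 7 to 28 tested members, so a single gene moves a bar by several percent.

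Arg1 and Chil3, chosen here after their values were seen, missed the call for both sites. Arg1, the enzyme arginase 1, was 4.22 on both intact heart arrays, 9.10 and 8.39 in the MI heart, and 7.52 and 7.75 in the peritoneal cavity. Its MI heart arrays were above all others, but only by 1.11 ± 0.23 over the peritoneal cavity (adjusted p for both sites = 0.0777). Chil3, a chitinase-like protein, was 4.16 and 4.37 in the intact heart, 6.74 and 8.30 in the MI heart, and 5.01 and 5.88 in the peritoneal cavity, and its MI heart arrays lay far apart (adjusted p = 0.0932).

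Other genes with large averaged differences owed them to 1 site. Saa3, an acute-phase protein, was 4.48 and 4.96 in the intact heart against 11.01 and 10.23 in the MI heart, but 10.95 and 11.37 in the peritoneal cavity. Thbs1, the matrix protein thrombospondin 1, had the same order of levels (MI heart 7.69 and 7.54, peritoneal cavity 7.39 and 8.07). The reverse held for Ccl4, a chemokine, at 10.84 and 11.03 in the intact heart, 11.18 and 10.95 in the MI heart, and 4.51 and 4.27 in the peritoneal cavity, and for Il1b, Cd83 and Il10, which were also far lower in the peritoneal cavity than in both hearts. Selp, an adhesion receptor, was bright in the peritoneal cavity (8.71 and 8.56) and near background in both hearts (4.34 to 4.73). Thbs1, Ccl4, Il1b, Cd83 and Il10 were chosen after their values were seen.

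The genes of the 3 proteins that define the cells were not called apart from both sites. Mrc1 was 9.57 and 9.51 in the intact heart, 8.64 and 9.07 in the MI heart, and 5.20 and 4.99 in the peritoneal cavity, between both sites although called against their mean (1.54 ± 0.16, adjusted p = 0.000598). Adgre1, which encodes F4/80, differed from the mean of the sites by 0.08 ± 0.22 (adjusted p = 0.853). Its other probes differed by -0.39 and -0.04 from the intact heart and by -0.80 and -0.55 from the peritoneal cavity. On their own they were not called apart from both sites. Itgam, which encodes CD11b, differed from the mean of the sites by -0.01 ± 0.20 (adjusted p = 0.976). Itgam nevertheless lay between the sites. In the single-site tests it differed by 1.02 from the intact heart (adjusted p = 0.0303) and by -1.05 from the peritoneal cavity (adjusted p = 0.0152). The peritoneal Mrc1 signal was dim but above background on both arrays.

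**Figure D5:**
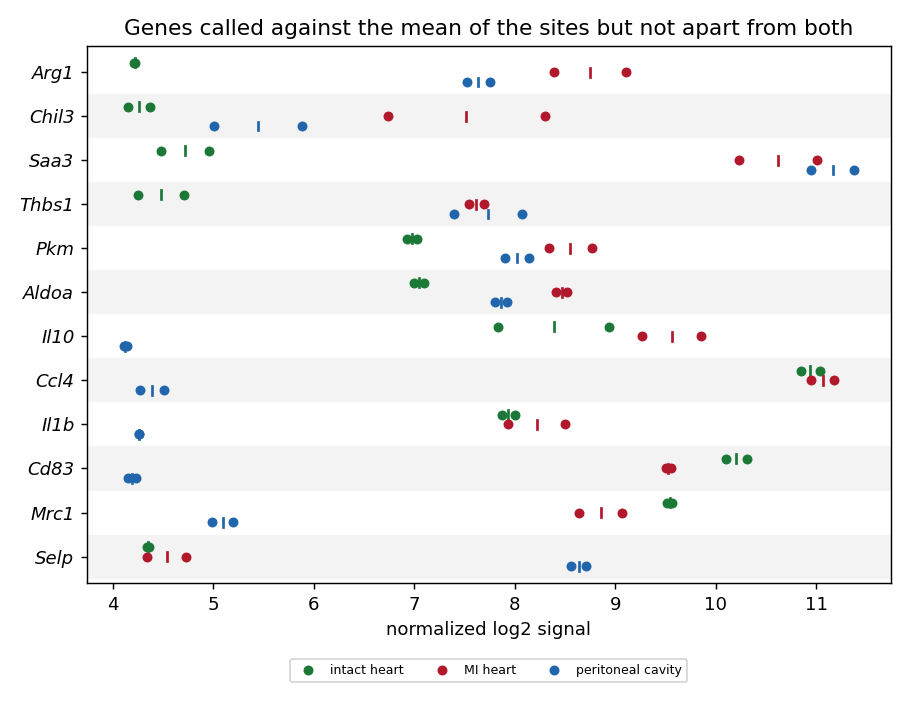
Normalized log2 signal of 12 genes called against the mean of the uninjured sites but not apart from both, with a point for each array (n = 2 per group) and a bar at each group mean. In Saa3 and Thbs1 the MI heart lies beside the peritoneal cavity, in Ccl4 and Il1b beside the intact heart, and in Mrc1 between both sites.

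Markers of other cell types gave no further calls apart from both sites. Against the mean of the sites 2 of 7 dendritic cell markers and 2 of 3 erythroid and platelet markers were lower. In these lists 0 were higher, next to 4.21% lower and 5.77% higher of all tests. Cardiomyocyte markers, 10 tested of 19 on the array, summed to 368.6 to 423.0 in the intact heart, 271.5 to 273.8 in the MI heart and 245.4 to 250.8 in the peritoneal cavity, with Myh7, Tnni3, Myl7 and Ckm not above background on any array. Sums were 36.6 to 41.0, 46.6 to 50.3 and 37.5 to 40.2 in the same order for 2 endothelial markers of 16, both near background in all groups. For 7 dendritic cell markers of 13 they were 227.3 to 242.9, 181.8 to 192.5 and 158.3 to 166.4. In mast cells, basophils and eosinophils Hdc was the 1 tested marker of 13, and its MI heart level (8.36 and 7.45) lay between the intact heart (5.71 and 5.61) and the peritoneal cavity (9.81 and 9.73). Smooth muscle, mesothelial, B cell, and erythroid and platelet lists also had 0 members apart from both sites.

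Promoters were searched for ACGTG, the core of the hypoxia response element, and TGANTCA, the AP-1 element, on both strands of the 250 bases before the start site (RefSeq, GRCm38.p6). Of the 82 higher named genes 71 matched a promoter, and 18 of these (25.4%) held ACGTG, next to 22.4% of 6719 tested genes and 16.6% of 27025 promoters. TGANTCA was in 8 of 71 (11.3%), next to 4.60% of tested genes and 6.87% of all promoters. Of 17 lower genes with a promoter, 1 held ACGTG and 0 held TGANTCA. Among the higher genes described above, Vegfa, Hilpda, Gpnmb and Inhba held neither element in this window. The promoters of 5 genes described above are shown because they hold a match. Matches are in capitals, and the strand of the gene is read 5′ to 3′. The 5 are Pdpn (chr4:143299565-143299814, minus strand), Mmp14 (chr14:54431348-54431597, plus strand), Slc2a1 (chr4:119108495-119108744, plus strand), Il1rn (chr2:24336610-24336859, plus strand) and Il1a (chr2:129309973-129310222, minus strand).
Pdpn: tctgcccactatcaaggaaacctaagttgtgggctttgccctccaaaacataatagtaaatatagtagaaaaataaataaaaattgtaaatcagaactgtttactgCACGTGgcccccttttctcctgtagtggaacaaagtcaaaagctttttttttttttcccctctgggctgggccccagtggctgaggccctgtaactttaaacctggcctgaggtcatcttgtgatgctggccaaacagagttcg
Mmp14: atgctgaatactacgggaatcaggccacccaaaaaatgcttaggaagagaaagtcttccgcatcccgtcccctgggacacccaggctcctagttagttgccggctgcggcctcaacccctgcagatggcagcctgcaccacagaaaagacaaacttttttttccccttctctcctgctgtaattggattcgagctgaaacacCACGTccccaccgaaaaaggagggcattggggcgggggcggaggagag
Slc2a1: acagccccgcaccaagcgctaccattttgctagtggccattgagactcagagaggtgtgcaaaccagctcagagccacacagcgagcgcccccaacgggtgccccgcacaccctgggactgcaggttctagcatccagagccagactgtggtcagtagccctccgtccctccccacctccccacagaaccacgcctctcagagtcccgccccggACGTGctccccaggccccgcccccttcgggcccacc
Il1rn: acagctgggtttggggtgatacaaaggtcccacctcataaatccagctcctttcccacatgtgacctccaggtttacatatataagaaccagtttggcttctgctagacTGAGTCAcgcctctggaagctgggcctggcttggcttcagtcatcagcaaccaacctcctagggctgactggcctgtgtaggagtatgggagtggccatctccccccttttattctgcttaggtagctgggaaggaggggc
Il1a: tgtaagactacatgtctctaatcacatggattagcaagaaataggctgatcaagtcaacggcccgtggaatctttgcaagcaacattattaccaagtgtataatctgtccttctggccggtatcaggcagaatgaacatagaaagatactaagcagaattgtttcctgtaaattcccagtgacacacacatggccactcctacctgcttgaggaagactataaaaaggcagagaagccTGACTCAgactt
In Pdpn the match is the palindrome CACGTG, which both strands read as ACGTG. The first base of the match lies at -48 from the start site in Mmp14 and at -36 in Slc2a1. The AP-1 element starts at -141 in Il1rn and at -12 in Il1a. A match describes these letters only, and the ACGTG share of the higher genes was close to that of all tested genes.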

How the data were processed

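RNA of macrophages was measured on Illumina mouse bead arrays. The deposited intensity values are linear, neither normalized nor background-subtracted, with a detection p-value per probe and array, per the file headers. The sources used here do not give the scanner software or how detection p-values were made. The intensity values of the series matrix, also deposited by the authors, are normalized, and for 4 of its 6 columns they matched the other replicate of the same group. The number of columns of values per sample left unused is 0.

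With limma 3.58.1 in R 4.3.3, neqc corrected the background (negative controls being inferred from detection p-values) and gave quantile-normalized log2 values with an offset of 16. Probes with both arrays of some group at a detection p under 0.05 were kept (14817). The probe with the highest mean stood for each gene, which gave 8244 named genes and 2289 unnamed probes; 34885 probes had 1 symbol, 18 several and 10378 none, and 34807 Entrez identifiers matched the reference gene table. Group means were fitted over 6 arrays with lmFit and eBayes (3 residual and 5.78 prior degrees of freedom). The two-sided moderated tests of limma, adjusted over 10533 tests by Benjamini-Hochberg, were made for MI heart minus the mean of both sites and for the larger of both single-site p-values where signs were the same, otherwise 1. The adjusted p printed beside a gene is the latter unless its sentence names the mean of the sites or the single-site tests.

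A bounded fold set the bright group's mean against, per array, the higher of the gene's own value and the lowest value of any probe above background, and is not a confidence limit. Named genes were, per direction, the 10 largest smaller-site differences above background in all groups, the 6 brightest of the others, up to 3 called genes per list, the 3 genes that define the cells, and up to 2 genes of each list without a call. Members, lists and tests were chosen with earlier results of these data known. Deviations of same-numbered replicates correlated at 0.08, 0.18 and 0.17 between groups, so the numbers were not taken to pair the arrays. The code was tested on simulated data.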

Additional observations from a re-analysis of the deposited data

How the results depend on the processing

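No named gene called apart from both sites or against their mean changed the direction of its difference from that mean. In named genes without a call a change of sign was not counted. Over 86 named genes and their alternatives, 912 values stayed on their side of the threshold, 231 lost it and 8 gained it. Genes apart from both sites (92 higher, 25 lower) numbered 47 and 12 without background correction, 45 and 12 with the authors' series matrix values, 26 and 5 with no filter on dim probes (29453 tests), 30 and 18 with a detection p under 0.01 on all arrays (5135 tests), 8 lower with median scaling, 159 higher with a robust prior that follows the mean level, and 202 and 82 with both single-site comparisons adjusted separately. Calls against the mean of the sites (608 higher, 443 lower) numbered 294 lower without background correction, 246 lower with median scaling, 311 and 217 with no filter, and 316 and 269 with the stricter filter. With the 4 uninjured arrays as 1 group, where the difference between sites counts as spread, they numbered 42 and 10 (976 at an unadjusted p under 0.05), and all 42 and 10 were apart from both sites. Leaving out 1 array in turn gave 15 to 80 higher and 1 to 27 lower apart from both, and 206 to 652 higher and 74 to 519 lower against the mean; the lone array of a group is then assumed to vary like the others. With fewer arrays or another filter the number of tests also changed. Median scaling moved the share of higher calls from 78.6% to 90.9% apart from both, which the stricter filter moved to 62.5%, and from 57.8% to 70.4% against the mean, and the median MI heart minus intact heart difference from -0.00 to 0.12. The replicate number as a block gave 125 and 33 apart from both and 737 and 592 against the mean. Unadjusted, the larger p was under 0.05 in 471 higher and 280 lower tests. Dim genes limit most bounds: 40 of the 92 higher genes were not above background in the peritoneal cavity and 18 not in the intact heart.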
